A study of Homo sapiens with 12 samples.

Results

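The genes described here were the 5 subunits of the transcription factor NF-κB (NFKB1, NFKB2, REL, RELA and RELB) and 5 members of the IκB family that bind them (NFKBIA, NFKBIB, NFKBIE, NFKBIZ and BCL3). They were taken by gene symbol from a table of 58735 genes, so they were 10 genes of 58735. RNA was sequenced from NCM460, a cell line that the labels call normal human colonic epithelium, in 12 libraries, 3 in each of 4 groups. The first group was wild type in medium alone and the second was wild type treated with TNF-α, an inflammatory cytokine. The third was wild type treated with TNF-α and Bufotenidine, which the study's text names 5-OH-TMT, a quaternary ammonium derivative of bufotenine. The fourth carried a knockdown of HTRA2, a mitochondrial serine protease, and was treated with TNF-α. All 4 groups were thus 1 cell line, and 3 of them shared TNF-α. The study's methods describe siRNAs against HTRA2, and its text sets the knockdown cells against cells given a control siRNA. The labels call the TNF-α libraries wild type without naming a control siRNA, and they do not say which siRNA made which library, so the part of the transfection in the knockdown results was not tested. The labels give no dose or time and do not say whether the libraries came from separate cultures, so p-values measure only the spread between these libraries, which may be technical.

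NF-κB is a dimer of Rel family proteins. In a resting cell, IκB proteins hold the dimer in the cytoplasm. TNF-α activates the IκB kinase, IκBα is degraded, and the dimer enters the nucleus and binds κB sites in DNA. Among the genes that carry κB sites are those of several subunits and IκB proteins themselves, so the pathway resupplies its own activators and inhibitors. The values below are RNA levels and do not measure protein, phosphorylation or nuclear entry.

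The κB sites near the starts of these genes are shown because they mark which members carry, in their own promoters, the sequence that NF-κB binds. RefSeq windows of 300 bases (250 before a transcript start, assembly GRCh38.p14) were given for 8 of the 10 genes, in 14 windows. RELB and NFKBIE had no window. Both strands were searched for the κB consensus. It was found in at least 1 window of 7 of the 8 genes and in 9 of the 14 windows, against 5.91% of 35116 windows and 7.09% of 27305 genes in the whole table. The 2 windows of RELA had no match. A match is a run of letters and not a measured binding site, and a window without one says nothing of sites elsewhere. Each line below gives 30 bases in the direction of transcription, with the consensus match, or overlapping matches, in capitals. Where a gene has several RefSeq starts, they are numbered along the chromosome.
NFKBIA, chr14:35404811-35404840, minus strand, the match starting 81 bases before the transcript start: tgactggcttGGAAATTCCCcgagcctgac
NFKB1, chr4:102501300-102501329, plus strand, 49 bases before start 1: cgacgtcagtGGGAATTTCCagccaggaag
NFKB2, chr10:102394462-102394491, plus strand, 107 bases before start 2: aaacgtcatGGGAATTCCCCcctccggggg
NFKB2, chr10:102394490-102394519, plus strand, 78 bases before start 2: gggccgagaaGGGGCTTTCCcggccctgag
NFKB2, chr10:102395519-102395548, plus strand, 176 bases before start 3: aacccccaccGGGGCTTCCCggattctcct
NFKB2, chr10:102395674-102395703, plus strand, 21 bases before start 3: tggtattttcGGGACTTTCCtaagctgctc
REL, chr2:60881518-60881547, plus strand, 47 bases before the start: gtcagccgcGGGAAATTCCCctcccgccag
NFKBIB, chr19:38899932-38899961, plus strand, 28 bases before start 2: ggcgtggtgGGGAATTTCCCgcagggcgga
NFKBIZ, chr3:101827757-101827786, plus strand, 223 bases before start 1: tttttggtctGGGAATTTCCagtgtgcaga
NFKBIZ, chr3:101849265-101849294, plus strand, 239 bases before start 2: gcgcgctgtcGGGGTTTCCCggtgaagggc
BCL3, chr19:44748700-44748729, plus strand, from base 3 of the transcript: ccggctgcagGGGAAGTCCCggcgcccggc

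Read on one strand or the other, the same 10 letters, GGGAATTTCC, stood in a window of 5 of the 8 genes (NFKBIA, NFKB1, REL, NFKBIB and NFKBIZ), against 0.145% of all windows and 0.179% of all genes. These letters were picked after the sites were seen. The NFKBIA stretch lies before the gene as the GENCODE 29 annotation draws it. The NFKB1 stretch ends on the first annotated base of that gene, and the REL stretch runs across the first base of REL. The stretches of NFKB2, NFKBIB and BCL3 and the second one of NFKBIZ lie within the annotated gene spans, next to RefSeq starts further in.

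**Figure D1:**
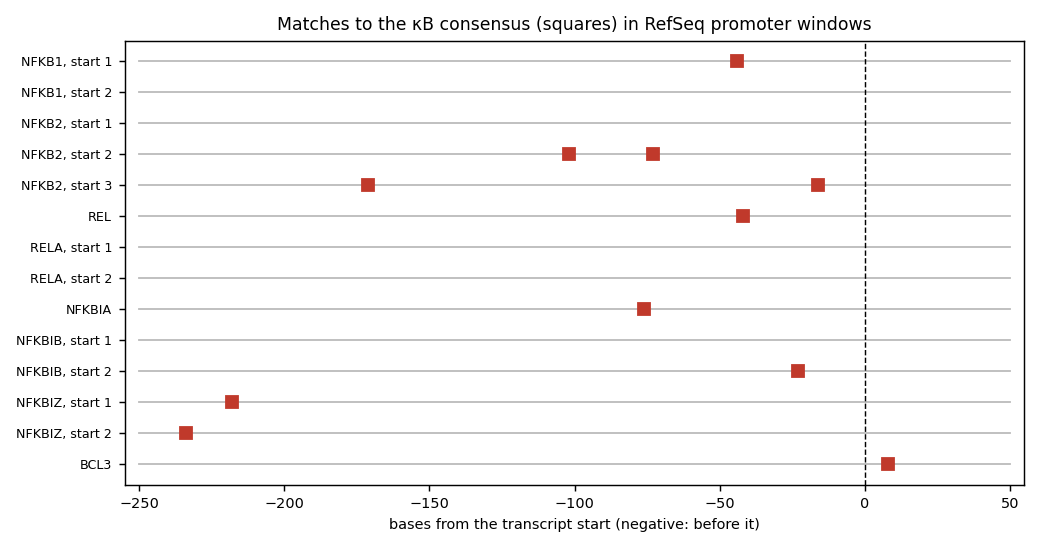
Each grey line is 1 of the 14 RefSeq promoter windows of 8 genes, in bases from its transcript start (dashed line), and each red square is a match, or a group of overlapping matches, to the κB consensus, 11 in all. NFKB2 has 4 matches at 2 of its 3 starts, and the 2 windows of RELA are empty.

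The level of each gene is given as FPKM, a read count scaled to the gene's length and the library's depth, so it can be compared between genes. Reads on genes numbered 31008429 to 37624399 per library. HTRA2 read 13.3 to 17.2 FPKM in the 9 libraries without the knockdown and 7.18 to 7.44 in the 3 with it. The knockdown replicate 2 stood apart, with 2.95% of its reads on mitochondrial genes against 3.69% to 4.68% in the other 11. For the subunit and IκB genes, the calls in the knockdown comparisons are given with and without it. The class shares, the pathway lists and the similar profiles below are given with it only. All 5 epithelial markers were expressed, but none of 7 colonocyte markers reached a mean of 1 FPKM and CDX2 was at 0 in all 12 libraries, while the 4 basal and squamous markers summed to 169.8 to 260.4 FPKM (KRT5 111.5 to 184.5). The label of colonic epithelium is thus not borne out by these markers. The summed level of 5 leukocyte markers was at most 0.161 FPKM in any library, with CD3E at 0 in all 12. The 6 fibroblast and endothelial markers summed to 1.53 to 1.56 FPKM in medium, 2.56 to 2.71 with TNF-α, 2.83 to 3.38 with Bufotenidine and 4.73 to 6.76 in the knockdown, carried by CDH5 and COL1A1, and their part in the results below was not tested. In bulk RNA, fewer cells of a type and less RNA per cell cannot be told apart.

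All 10 genes were expressed above the filter of a mean of 0.1 FPKM, which 18079 genes passed. In medium the order of the mean levels was RELA, NFKBIA, NFKBIB, NFKBIE, BCL3, NFKB1, NFKB2, NFKBIZ, RELB and REL, and the libraries of neighbours overlapped only from NFKBIE to NFKB2. RELA made up 70.3% ± 0.90 (SD, n = 3) of the summed FPKM of the 5 subunits in medium, and NFKBIA 51.7% ± 2.4 of that of the 5 IκB genes. With TNF-α, NFKBIA stood first, RELA and NFKB2 overlapped behind it, and RELB had moved to overlap NFKBIB.

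**Figure D2:**
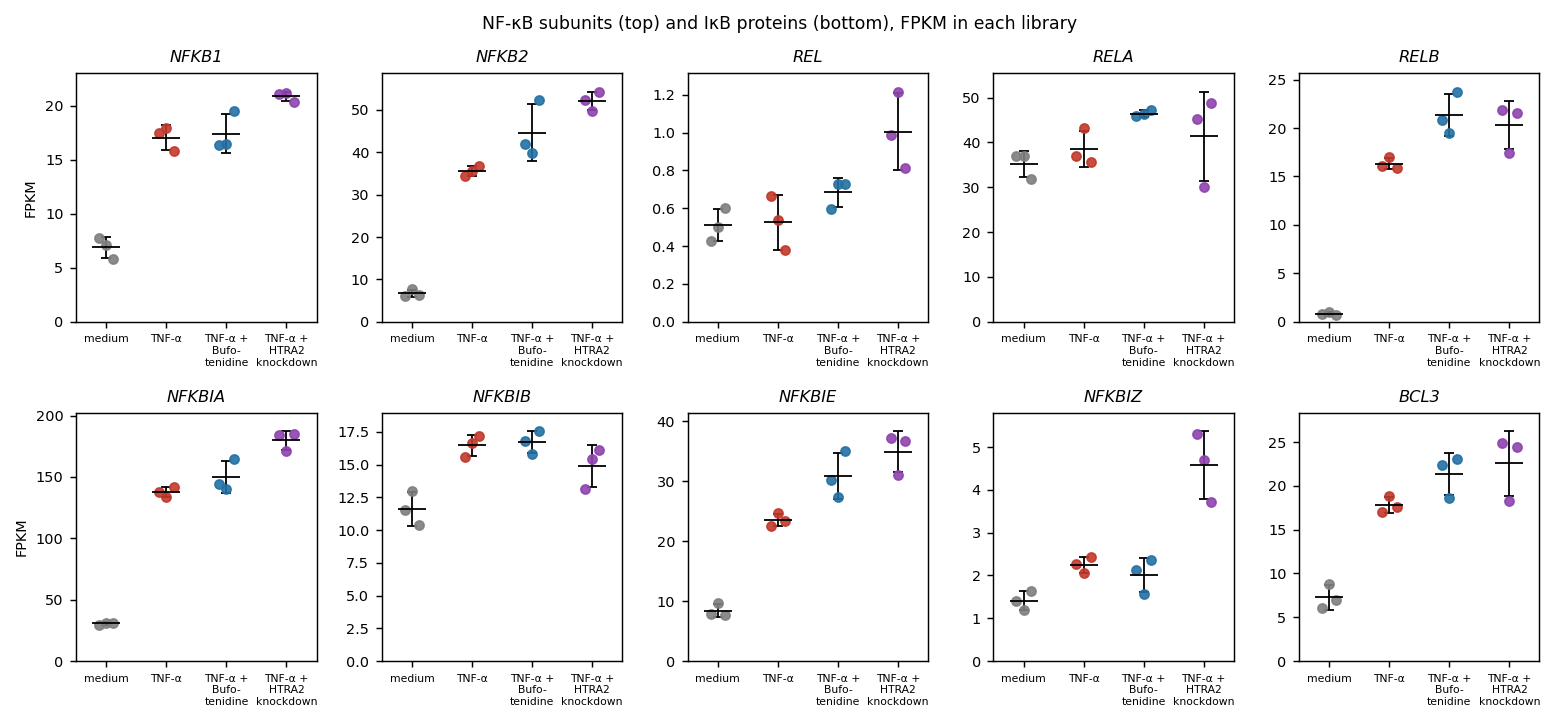
Each point is the FPKM of 1 library, with a linear axis from 0 that differs between genes, and the bars are the mean ± SD of 3 libraries per group. NFKB2, RELB, NFKBIA, NFKBIE, NFKB1 and BCL3 are higher in every TNF-α library than in every medium library, RELA and REL overlap between those 2 groups, and NFKBIZ is highest in the 3 knockdown libraries.

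The comparison of TNF-α with medium asks how the cytokine alone moved these genes. RELB, NFKB2, NFKBIA, NFKBIE, NFKB1, BCL3 and NFKBIB rose, 7 of the 10, whereas NFKBIZ and the subunit genes RELA and REL did not pass the test. The calls came from limma on log2(FPKM + 0.1), at a Benjamini-Hochberg adjusted p under 0.05 over all genes tested. At this threshold 3.22% of all tested genes were higher with TNF-α. The study's own rule for a changed gene, a 2-fold difference and an unadjusted p no higher than 0.05, was met by 6 of the 10 genes, upwards, against 1.76% of all genes. In 8 of the 10 genes every TNF-α library lay above every medium library, against 11.1% of all genes. The median difference of the 10 genes was 1.30 on the log2 scale, and that of all genes was -0.0020.

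RELB (ENSG00000104856, chr19:45001430-45038198) encodes the subunit that pairs mainly with p52 in the non-canonical pathway. It read 0.780, 1.03 and 0.656 FPKM in the 3 medium libraries and 16.1, 17.0 and 15.9 with TNF-α. The groups were far apart, and the ratio of the means was 19.9 (log2 difference 4.18, SE 0.14, adjusted p = 9.18e-09). RELB thus changed from the second lowest of the 10 genes in medium to a level like that of NFKB1.

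NFKB2 (ENSG00000077150, chr10:102394110-102402529) encodes p100, which is processed to p52 and in its unprocessed form also acts as an inhibitor. Its levels were 6.04, 7.69 and 6.34 FPKM in medium and 34.5, 35.6 and 36.7 with TNF-α. All 3 treated libraries lay above all 3 controls, with a ratio of 5.32 (log2 difference 2.40, SE 0.11, adjusted p = 1.26e-07). NFKB1 (ENSG00000109320, chr4:102501329-102617302), whose product p105 is the precursor of p50, read 7.73, 7.11 and 5.82 FPKM in medium and 17.5, 17.9 and 15.8 with TNF-α. The groups did not overlap and the ratio was 2.48 (log2 difference 1.30, SE 0.10, adjusted p = 1.18e-05). The 2 precursor genes stood at almost the same level in medium and apart with TNF-α.

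RELA (ENSG00000173039, chr11:65653596-65663094) encodes p65, the subunit that TNF-α brings into the nucleus with p50. It read 36.9, 36.9 and 31.8 FPKM in medium and 36.9, 43.2 and 35.6 with TNF-α. The groups overlapped, and the log2 difference was 0.13 with a 95% interval of -0.19 to 0.46 (adjusted p = 0.77). REL (ENSG00000162924, chr2:60881521-60931610) encodes c-Rel, best known from lymphoid cells. It read 0.430, 0.502 and 0.602 FPKM in medium and 0.664, 0.536 and 0.377 with TNF-α, so the groups overlapped. The log2 difference was 0.02, with an interval of -0.44 to 0.48 (adjusted p = 0.986). Of the exon bases of REL, 43.3% are shared with AC010733.2 on the same strand, which was listed at 0 in every library, so the level of REL is uncertain to the extent that counting dropped or divided those reads.

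NFKBIA (ENSG00000100906, chr14:35401511-35404749) encodes IκBα, the inhibitor that is degraded first and resynthesized within the response. Its levels were 29.4, 31.3 and 31.0 FPKM in medium and 137, 134 and 142 with TNF-α. The spread within each group was small beside the difference, and the ratio was 4.50 (log2 difference 2.17, SE 0.07, adjusted p = 9.18e-09). NFKBIE (ENSG00000146232, chr6:44258166-44265788), the gene of IκBε, read 7.79, 9.61 and 7.71 FPKM in medium and 22.6, 24.6 and 23.3 with TNF-α. The groups were separate, with a ratio of 2.81 (log2 difference 1.48, SE 0.11, adjusted p = 8.77e-06). NFKBIB (ENSG00000104825, chr19:38899700-38908893), the gene of IκBβ, read 11.5, 13.0 and 10.4 FPKM in medium and 15.6, 16.6 and 17.2 with TNF-α. It was the smallest of the 7 rises, with a ratio of 1.42 (log2 difference 0.50, SE 0.10, adjusted p = 0.00956), and it did not pass in a fit of these 2 groups alone (adjusted p = 0.0564).

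BCL3 (ENSG00000069399, chr19:44747705-44760044) and NFKBIZ (ENSG00000144802, chr3:101827991-101861022) encode atypical IκB proteins that work in the nucleus, BCL3 with p50 and p52 dimers and NFKBIZ as IκBζ, a cofactor for a subset of target genes. BCL3 read 6.04, 8.79 and 7.0 FPKM in medium and 17.0, 18.8 and 17.6 with TNF-α. The groups were separate and the ratio was 2.45 (log2 difference 1.30, SE 0.15, adjusted p = 2.14e-04). NFKBIZ read 1.39, 1.19 and 1.64 FPKM in medium and 2.26, 2.06 and 2.44 with TNF-α. Every treated library was higher, but the log2 difference of 0.65, with an interval of 0.28 to 1.02, missed the threshold (adjusted p = 0.057). It passed in 2 of 10 other settings and in 2 of 12 fits that left out 1 library.

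The make-up of both classes changed with these rises. The summed FPKM of the subunits was 50.1 ± 4.3 in medium and 108 ± 5.4 with TNF-α, and that of the IκB genes 59.3 ± 4.0 and 198 ± 4.1. The share of RELA within the subunits was 70.3% ± 0.90 in medium and 35.6% ± 1.9 with TNF-α, while NFKB2 went from 13.4% ± 1.5 to 33.0% ± 2.0 and RELB from 1.63% ± 0.26 to 15.1% ± 0.20. The share of NFKB1 was 13.7% ± 1.1 and 15.8% ± 0.73. Within the IκB genes, NFKBIA went from 51.7% ± 2.4 to 69.6% ± 1.2 and NFKBIB from 19.6% ± 1.4 to 8.32% ± 0.29. The libraries of the 2 groups did not overlap in any of these shares. In the knockdown the NFKB2 share was 38.6% ± 2.6, and its 3 libraries (37.0% to 41.6%) lay above the TNF-α libraries (31.2% to 35.2%), while the share of NFKBIZ within the IκB genes was 1.79% ± 0.34 in the knockdown, 1.14% ± 0.08 with TNF-α and 0.907% ± 0.12 with Bufotenidine.

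**Figure D3:**
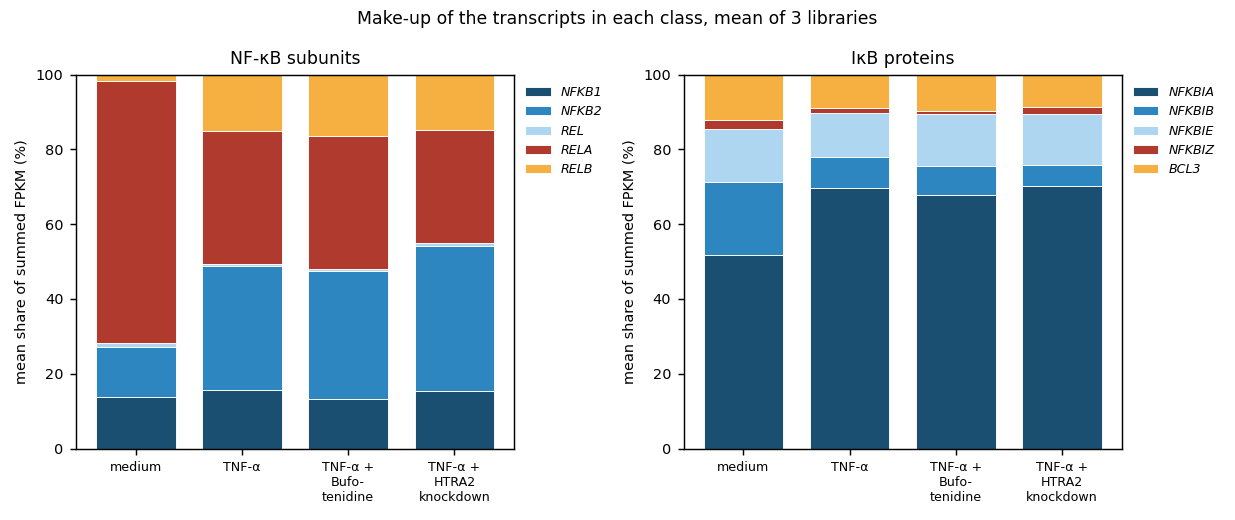
Stacked bars give the mean share (percent, n = 3 libraries) of each gene in the summed FPKM of the 5 subunits (left) and the 5 IκB genes (right). RELA falls from 70.3% in medium to 35.6% with TNF-α, and NFKB2 has 33.0% with TNF-α, 34.1% with Bufotenidine and 38.6% in the knockdown.

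The comparison of Bufotenidine with TNF-α alone asks whether the compound moved these genes in stimulated cells. None of the 10 genes passed the test in limma, in either direction, where 0.0332% of all genes were called higher. At an unadjusted p under 0.05 there were 3 of the 10, NFKB2, RELB and NFKBIE, all higher, against 20.1% of all genes in both directions. The count of adjusted calls was also 0 with voom on recovered reads and in every other setting and every fit without 1 library. The lowest adjusted p among the settings was 0.0505, for RELB in a limma fit of these 2 groups alone. Over all genes the number called moved with the setting. It was 6 higher and 1 lower in the main fit, 236 with voom, 911 in the 2-group fit and 1 with eBayes without trend. It was 127 of 11185 with the filter of 1 FPKM and 551 without the knockdown replicate 2. None of the 10 met the 2-fold rule upwards, against 0.686% of all genes. Every Bufotenidine library lay above every TNF-α library for NFKB2, RELA, RELB and NFKBIE, which is 4 of 10 against 16.3% of all genes.

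NFKBIE had the largest difference among the 10 genes in the main fit. It read 30.1, 27.4 and 35.1 FPKM with Bufotenidine, beside 22.6, 24.6 and 23.3 with TNF-α alone, a log2 difference of 0.39 with an interval of 0.14 to 0.63 (adjusted p = 0.116). RELB read 20.8, 19.5 and 23.8 FPKM with the compound, above the 15.9 to 17.0 of TNF-α alone, with a log2 difference of 0.38 and an interval of 0.08 to 0.68 (adjusted p = 0.164). NFKB2 read 41.9, 39.8 and 52.3 FPKM, a log2 difference of 0.32 with an interval of 0.08 to 0.55 (adjusted p = 0.147). In all 3 genes the Bufotenidine replicate 3 was the highest library, and without it the log2 differences were 0.29, 0.30 and 0.20 in the same order.

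RELA read 45.8, 46.3 and 47.2 FPKM with Bufotenidine, a log2 difference of 0.27 with an interval of -0.05 to 0.60 (adjusted p = 0.331). NFKBIA read 145, 140 and 165 FPKM, overlapping the TNF-α libraries, with a log2 difference of 0.12 and an interval of -0.03 to 0.27. The intervals of NFKB1 (-0.20 to 0.25) and NFKBIB (-0.19 to 0.23) included 0. NFKBIZ was the only one of the 10 with a negative difference, -0.17 with an interval of -0.54 to 0.20, from libraries at 2.12, 1.57 and 2.35 FPKM. The intervals of BCL3 (-0.06 to 0.57) and REL (-0.11 to 0.81) were wider and included 0. REL was above NFKBIE with voom (0.379 against 0.355) and without the Bufotenidine replicate 3 (0.308 against 0.291).

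The comparison of the HTRA2 knockdown with TNF-α alone asks the same of the knockdown, and it shares the TNF-α libraries with the comparisons above. NFKBIZ, REL, NFKBIE, NFKB2 and NFKBIA rose, 5 of the 10 genes, and none fell. Among all genes 9.35% were called higher. The lowest knockdown library exceeded the highest TNF-α library for these 5 genes and for NFKB1 and RELB, which is 7 of 10 against 17.5% of all genes. On the log2(FPKM + 0.1) scale none of the 10 met the 2-fold rule upwards, which 3.08% of all genes met, and NFKBIZ fell just short of it with a log2 difference of 0.98. With limma 8 of the 10 had an unadjusted p under 0.05, against 31.1% of all genes. The median log2 difference of the 10 genes was 0.36, and that of all genes was -0.0034.

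NFKBIZ rose most. It read 5.32, 4.69 and 3.73 FPKM in the knockdown against 2.26, 2.06 and 2.44 with TNF-α. The groups were separate, with a ratio of mean FPKM of 2.03, past 2-fold on that scale (log2 difference 0.98, SE 0.17, adjusted p = 0.00213), and the call was kept in all 10 other settings and without any of the 12 libraries. REL read 0.985, 1.22 and 0.812 FPKM against 0.664, 0.536 and 0.377. The log2 difference was 0.83 (SE 0.21, adjusted p = 0.0178). The call on REL was lost without the knockdown replicate 2 (adjusted p = 0.0587), without the knockdown replicate 1 (0.0557), without the TNF-α replicate 3 (0.0685) and in a fit of these 2 groups alone (0.0703).

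NFKBIE read 37.1, 31.0 and 36.7 FPKM in the knockdown, a log2 difference from TNF-α of 0.57 (SE 0.11, adjusted p = 0.00436). NFKB2 read 52.4, 49.8 and 54.2 FPKM, a log2 difference of 0.55 (SE 0.11, adjusted p = 0.00435). NFKBIA read 184, 171 and 185 FPKM against 134 to 142, a log2 difference of 0.39 (SE 0.07, adjusted p = 0.00243). All 3 genes kept their calls in every setting and without any 1 library.

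NFKB1 read 21.1, 21.2 and 20.4 FPKM in the knockdown, above the 15.8 to 17.9 of TNF-α, with a log2 difference of 0.29 that missed the threshold (adjusted p = 0.0755). It passed with voom (adjusted p = 0.0288), in a fit of these 2 groups alone (0.0393) and without the medium replicate 3 (0.0326). RELB read 21.8, 17.4 and 21.6 FPKM, a log2 difference of 0.30 (adjusted p = 0.156) that became 0.41 (adjusted p = 0.0699) without the knockdown replicate 2. With voom and all libraries RELB was called (adjusted p = 0.0308). NFKBIB read 13.1, 15.4 and 16.1 FPKM, a log2 difference of -0.15 (adjusted p = 0.329). For RELA and BCL3 the call in limma turned on the knockdown replicate 2. RELA read 45.3, 30.1 and 48.8 FPKM, with a log2 difference of 0.07 (adjusted p = 0.783) that became 0.29 (adjusted p = 0.0497) without that library. BCL3 read 24.9, 18.3 and 24.5 FPKM, with 0.33 (adjusted p = 0.15) and, without it, 0.47 (adjusted p = 0.0374). With voom BCL3 was called with all libraries as well (adjusted p = 0.0474). Voom called 3686 of 18079 genes in this comparison, in either direction. Without the knockdown replicate 2, the genes called in limma were NFKB2, RELA, NFKBIA, NFKBIE, NFKBIZ and BCL3, 6 of 10. In that fit 3337 of 18079 genes were called in either direction, beside 1691 higher and 1461 lower in the fit with all libraries.

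The knockdown and Bufotenidine were also compared directly, which tests the difference between their effects under TNF-α. NFKBIZ and NFKBIA were higher in the knockdown, 2 of the 10 genes, against 7.85% of all genes, and none was lower. NFKBIZ also met the 2-fold rule, as the 1 gene of 10, against 2.18% of all genes. The knockdown libraries lay above every Bufotenidine library for NFKB1, REL, NFKBIA and NFKBIZ, 4 of 10 against 18.2% of all genes. The ratio of NFKBIZ was 2.27 (log2 difference 1.15, SE 0.17, adjusted p = 0.00128), and this call was kept in every setting and without any 1 library. The log2 difference of NFKBIA was 0.27 (SE 0.07, adjusted p = 0.0236). This call was lost without the Bufotenidine replicates 1 or 2 or the knockdown replicates 1 or 3 (adjusted p 0.0577 to 0.102), in a fit of the 2 groups alone (0.0819) and with eBayes without a trend (0.0569). Without the knockdown replicate 2 the same 2 genes were called, where 1770 of 18079 genes were called in either direction.

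For the other 8 genes the difference between knockdown and Bufotenidine did not pass in limma with all libraries, although NFKBIE, NFKB2 and REL had passed in one comparison with TNF-α and not in the other. The log2 difference was 0.18 for NFKBIE (interval -0.06 to 0.42), 0.23 for NFKB2 (interval -0.0017 to 0.47) and 0.48 for REL (interval 0.02 to 0.94, adjusted p = 0.148). For NFKB1 it was 0.27 (interval 0.04 to 0.49, adjusted p = 0.11). The intervals of RELA (-0.52 to 0.13), RELB (-0.38 to 0.22), NFKBIB (-0.38 to 0.04) and BCL3 (-0.25 to 0.39) included 0. With voom on recovered reads, NFKB1 (adjusted p = 0.0275), NFKB2 (0.0406) and REL (0.0445) were called higher in the knockdown. NFKB2 was also called in limma without the Bufotenidine replicate 3 (0.0428). Voom called 3363 of 18079 genes in this comparison, in either direction.

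**Figure D4:**
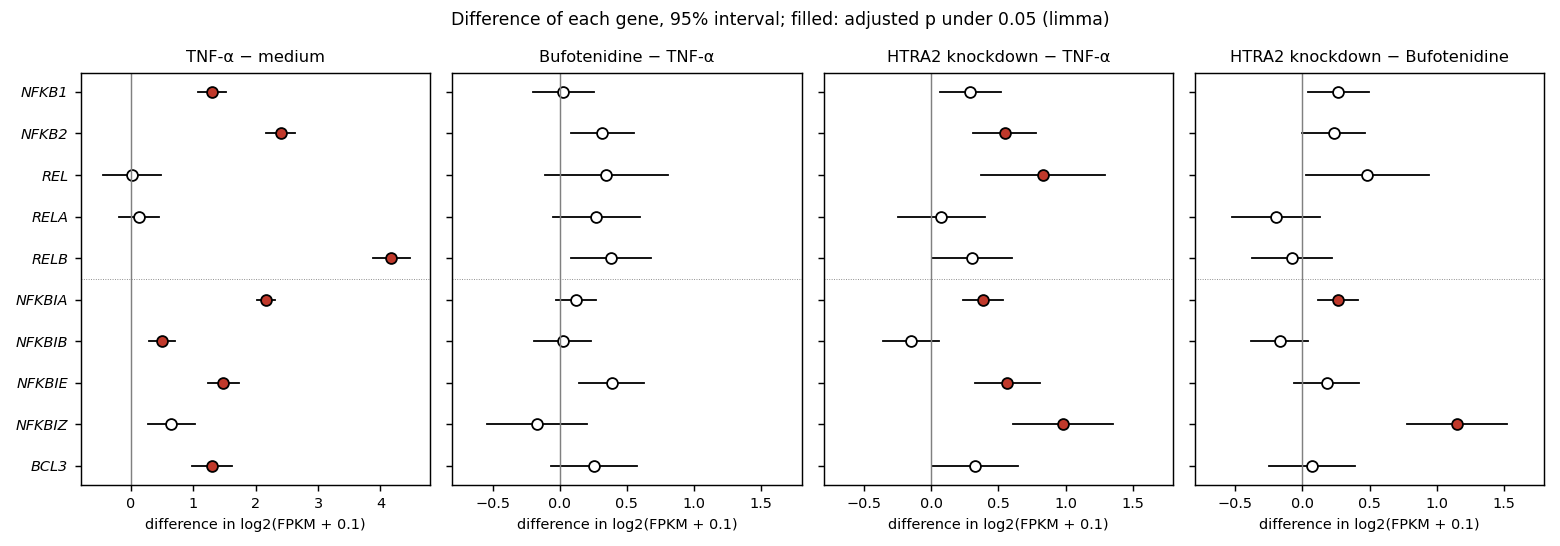
Each panel gives 1 comparison, with the difference in log2(FPKM + 0.1) as a point and its 95% interval as a line, and filled points have an adjusted p under 0.05. The first panel has a wider axis, up to 4.18 for RELB, and in the other 3 panels the differences run from -0.20 to 1.15, with NFKBIZ the rightmost filled point in the last 2.

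The rest of the pathway was described by lists of its known parts. The lists were chosen with earlier results of these data known, so their counts are not independent tests. Whether the list results for the knockdown hold without its replicate 2 was not tested. Of 16 genes of the receptor, its adaptors and the kinases above IκB, 1 rose with TNF-α, where 3.22% of all genes were called higher. It was TRAF3, an adaptor that restrains the non-canonical pathway, from 6.80 ± 0.53 to 13.6 ± 0.88 FPKM (log2 difference 0.99, adjusted p = 1.12e-05). The IκB kinase subunits CHUK, IKBKB and IKBKG differed from medium by 0.09, -0.05 and -0.03 on the log2 scale, with adjusted p of 0.791, 0.891 and 0.947. In the knockdown 2 of the 16 rose against TNF-α, where 9.35% of all genes were called higher. They were MAP3K8, a kinase held by p105, from 1.20 ± 0.25 to 2.40 ± 0.07 FPKM (log2 difference 0.96, adjusted p = 0.00205) and TAB3, an adaptor of the kinase TAK1 (log2 difference 0.38, adjusted p = 0.0473). MAP3K8 was also higher in the knockdown than with Bufotenidine, by 0.99 (adjusted p = 0.00266), as the 1 gene of the 16, against 7.85% of all genes. None of 5 genes of the ubiquitin ligase that marks IκB for degradation was called in any of the 4 comparisons, with limma or with voom. Taking the comparisons in the order above, limma called 3.22%, 0.0332%, 9.35% and 7.85% of all genes higher. It called 0.885%, 0.00553%, 8.08% and 7.43% lower, and voom called 862, 236, 3686 and 3363 of 18079 genes in either direction. A count of 0 of 5 is near these shares. At an unadjusted p under 0.05, 0 of the 5 differed with TNF-α and 0 between the knockdown and Bufotenidine, while 2 were lower with Bufotenidine than with TNF-α and 3 were lower in the knockdown than with TNF-α, where 20.1% and 31.1% of all genes had such a p in either direction.

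Of 13 tested genes listed as feedback regulators of the pathway, 6 rose with TNF-α and none fell, where 3.22% of all genes were called higher. TNFAIP3, which encodes the ubiquitin-editing enzyme A20, went from 1.22 ± 0.10 to 28.3 ± 0.75 FPKM (log2 difference 4.43, adjusted p = 9.18e-09), and BIRC3, the ubiquitin ligase cIAP2, differed by 2.89 (adjusted p = 9.58e-06). In the knockdown 7 of the 13 were higher than with TNF-α and 1, PDLIM2, was lower, by -0.57 (adjusted p = 0.0128). The shares of all genes were 9.35% higher and 8.08% lower. ZC3H12A, an endoribonuclease that degrades inflammatory transcripts, differed by 1.28 (adjusted p = 6.28e-05) and TNFAIP3 by 1.02 (adjusted p = 7.02e-04). The knockdown was above Bufotenidine in 5 of the 13 and below it in 1, against 7.85% and 7.43% of all genes.

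Of 23 tested NF-κB target genes, 20 rose with TNF-α and none fell, with a median log2 difference of 1.95, where 3.22% of all genes were called higher. MMP9, a matrix metalloproteinase, went from 0.08 ± 0.09 to 2.17 ± 0.25 FPKM (log2 difference 3.73, adjusted p = 1.99e-05). Its mean in medium lay below the 0.1 added before the log, so the size of this difference depends on that constant. In the knockdown 15 of the 23 were higher than with TNF-α and 1, IL6, was lower, against 9.35% and 8.08% of all genes. The median of the 23 was 1.01. LCN2, an antimicrobial siderophore-binding protein, read 173 ± 48 FPKM against 21.6 ± 6.6 (log2 difference 3.00, adjusted p = 1.42e-05), and CXCL8, a neutrophil chemokine, 36.8 ± 9.0 against 9.32 ± 2.0 (log2 difference 1.96, adjusted p = 9.38e-05). The median of the target genes against Bufotenidine was 0.81, with 15 higher and 1, IER3, lower, against 7.85% and 7.43% of all genes. With Bufotenidine against TNF-α none of these 23, 13, 16 and 5 genes passed in limma, where 0.0332% of all genes were called higher. The medians of the 4 lists lay between -0.15 and 0.24. Of the 23 target genes, 9 had an unadjusted p under 0.05 in limma, all of them higher, against 20.1% of all genes in either direction. Voom called 2 of the 23 higher, where it called 236 of 18079 genes in either direction. Of the 13 feedback regulators 3 and of the 16 upstream genes 5 had an unadjusted p under 0.05, beside the same 20.1%, and voom called none of either list.

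**Figure D5:**
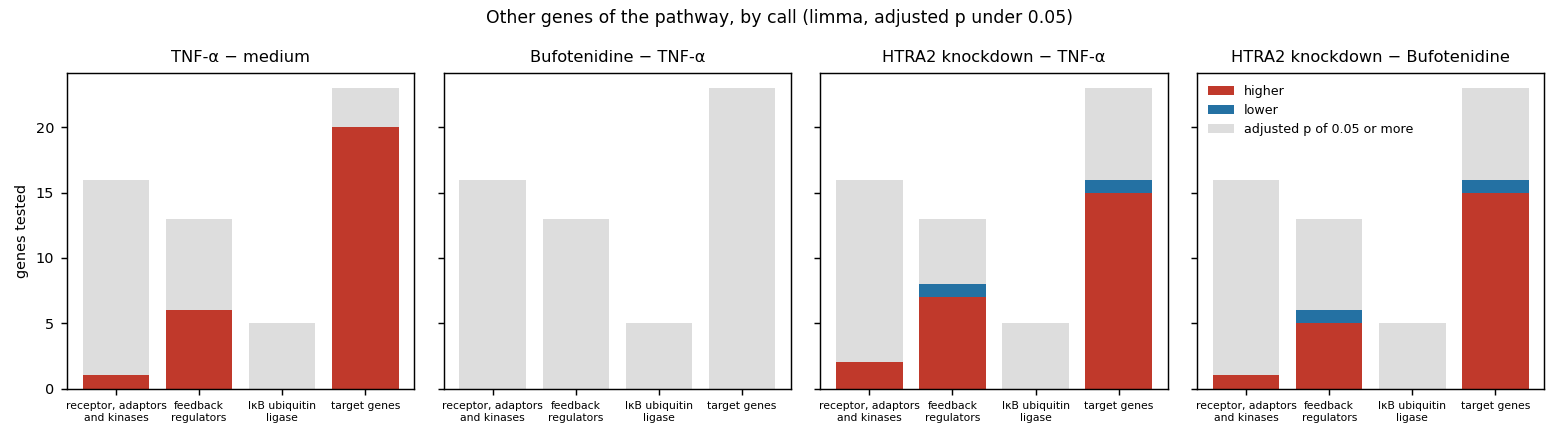
Bars count the tested genes of 4 pathway lists that were higher (red), lower (blue) or not called (grey) in each comparison at an adjusted p under 0.05 in limma. The target genes have 20 higher of 23 with TNF-α, 0 with Bufotenidine and 15 in the knockdown, and the 5 genes of the IκB ubiquitin ligase are grey throughout. Of all tested genes, 3.22%, 0.0332%, 9.35% and 7.85% were called higher and 0.885%, 0.00553%, 8.08% and 7.43% lower, in panel order.

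For each of the 10 genes the gene of most similar profile was sought among 11176 others, by the root mean square (RMS) difference of log2(FPKM + 0.1) about each gene's mean over the 12 libraries, which share their groups. NFKBIA was closest to TNIP1, a partner of A20 (0.102), and NFKB1 to CD83 (0.105). NFKBIE was closest to IKBKE, an IκB kinase-related kinase (0.120), and BCL3 to ZSWIM4 (0.152). The closest profile to NFKB2 was that of INHBA (0.184), to RELA that of TGFB1 (0.0591), to NFKBIB that of PROSER2 (0.0924) and to REL that of RNF213 (0.166). NFKBIZ was closest to CPEB2 (0.141). RELB, with the widest range of the 10, had the least close partner, LTB, at 0.431. Among the 10 genes themselves, NFKBIE and BCL3 (0.177) and NFKB2 and NFKBIA (0.186) were the closest pairs, and NFKBIZ was closest to REL at 0.419.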

How the data were processed

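The authors extracted RNA with Trizol, enriched poly(A) RNA for sequencing and deposited FPKM values, 1 for each gene in each library, in a single table. The submitters' processing notes name CASAVA 1.8, HISAT2 2.0.4, HTSeq 0.9.1 and hg38, without their roles. The scaling, strandedness and handling of shared reads are not given in the sources used here. The gene coordinates equalled GENCODE 29 (GRCh38) for 99.92% of genes. Whole reads were recovered from the FPKM (100% of values whole within 0.01). Between replicates, chi-squared per degree of freedom was 7.35 to 45.4. The median of ratios factor was 1.008 in every library, so the deposited values already carried that scaling.

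Genes with a mean of at least 0.1 FPKM (18079) were analysed as log2(FPKM + 0.1), with 1 mean per group, by limma 3.58.1 (R 4.3.3), all 12 libraries in 1 fit with 8 residual degrees of freedom, eBayes with a trend, two-sided tests and Benjamini-Hochberg adjustment over all 18079 genes. Fold changes on this scale understate the change of low genes. The members, gene lists and tests were chosen with earlier results of these data known. A gene of the marker lists and a gene of the pathway lists are not reported here and were left out of their lists. All 10 members are named. From each list, at most 2 called genes per comparison with a mean of at least 1 FPKM and the largest change are named, and the 3 IκB kinase subunits, IL6, PDLIM2 and IER3 were added after their values were seen. Alternatives were pseudocounts of 1 and 0.01, no filter, a filter of 1 FPKM, median of ratios, quantile normalization, 2-group fits, eBayes without trend, a replicate block, voom on recovered reads, and each library left out.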

Additional observations from a re-analysis of the deposited data

How the results depend on the processing

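Of 876 alternative values of the 10 genes, 834 kept their direction and side of the threshold, 11 lost a call, 15 gained one and 16 changed sign, none of them with a call. The share that kept is partly fixed by construction, since the median of ratios factor was the same in every library and leaving out a library of a group not compared leaves the difference as it was. The count for TNF-α against medium was 7 and ranged from 6 to 8, and for Bufotenidine against TNF-α it was 0 throughout. For the knockdown against TNF-α, 5 genes became 8 with voom on recovered reads, which added NFKB1, RELB and BCL3. The count was 4 to 6 when 1 library was left out. Of all 18079 genes, voom called 3686 there and the fits without 1 library 2015 to 3518, in either direction. The main fit called 1691 higher and 1461 lower. For the knockdown against Bufotenidine, 2 genes became 5 with voom, 1 in the 2-group fit and 1 with eBayes without trend. The count was 1 to 3 when 1 library was left out. Of all 18079 genes, voom called 3363 in that comparison, the 2-group fit 1930 and eBayes without trend 2134. The fits without 1 library called 1314 to 3213, and the main fit 1419 higher and 1343 lower. The cause of these changes was not tested. The filter of 1 FPKM left REL out of the fit. The sign changes with voom were NFKB1 (-0.0066) and NFKBIB (-0.013) in Bufotenidine against TNF-α. The other sign changes came with 1 library left out, and these log2 differences ranged from -0.14 to 0.20 for REL in TNF-α against medium, from -0.056 to 0.071 for NFKB1 and from -0.017 to 0.060 for NFKBIB in Bufotenidine against TNF-α, and from -0.059 to 0.29 for RELA in the knockdown against TNF-α. In the knockdown against Bufotenidine they ranged from -0.33 to 0.018 for RELA, from -0.14 to 0.028 for RELB and from -0.024 to 0.22 for BCL3.

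With the replicate block the counts were 7, 0, 5 and 2. Libraries with the same number correlated at -0.10 to 0.038 over 18 pairs, and those with different numbers at -0.040 to 0.11 over 36, so no pairing by replicate number was seen. These values do not settle whether libraries of the same number shared a culture. Depth limited RELB in medium most, with as few as 65 reads in a library, and then REL, with 185.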
